A study of Homo sapiens with 16 samples.

Results

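The genes described here are 9 components of MHC class I antigen presentation, HLA-B, HLA-C, HLA-E, B2M, TAP1, TAP2, TAPBP, PSMB8 and PSMB9, taken by symbol from a gene table of 40663 symbols. They were measured by bulk RNA-seq in 16 cultures, 4 to a group, of the established human colon fibroblast line Ccd18-Co. The unstimulated group (libraries 1 to 4) received no cytokines. The other groups shared a history of 3 cytokine pulses, each with 10 ng/ml TNF, 10 ng/ml OSM, 10 ng/ml IL-17A and 0.1 ng/ml IL-1B, every pulse being 72 h of cytokines and 96 h of recovery, followed by a rest of 1 week. They then received DMSO (vehicle, libraries 13 to 16), 250 nM belinostat, an inhibitor of histone deacetylases (libraries 17 to 20), or 10 µM GSK-J4, an inhibitor of H3K27 demethylases (libraries 21 to 24) for 5 days, and RNA was taken 2 weeks after the compound. The doses are those of the labels, and the study gives other concentrations of IL-1B and of the compounds for some of its experiments. The unstimulated libraries are titled as DMSO controls. Because every culture came from the same line, the p-values measure the spread between cultures and not between donors, and the readout is the RNA left after the rest periods rather than the response during a pulse.

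MHC class I molecules carry peptides from inside the cell to its surface, where CD8 T cells and natural killer cells inspect them. Proteasomes cut the peptides, and PSMB8 and PSMB9 are catalytic subunits of the immunoproteasome that take the places of PSMB5 and PSMB6. The transporter built from TAP1 and TAP2 moves peptides into the endoplasmic reticulum, tapasin (TAPBP) holds the empty heavy chain beside it, and HLA-B, HLA-C and HLA-E are heavy chains that pair with the light chain B2M. Interferons are known to raise the set through transcription factors such as IRF1 and IRF9 and the coactivator NLRC5, and fibroblasts express it at rest.

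In the GENCODE annotation of GRCh38, 8 of the 9 genes lie on chromosome 6, in the MHC. HLA-B (ENSG00000234745.14) is at chr6:31353872-31367067 and HLA-C (ENSG00000204525.18) at chr6:31268749-31272130, both on the minus strand, while HLA-E (ENSG00000204592.9) is at chr6:30489509-30494194 on the plus strand. TAP1 (ENSG00000168394.13, minus strand, chr6:32845209-32853816) lies inside the annotated span of PSMB9 (ENSG00000240065.8, plus strand, chr6:32844136-32859851), which also reaches into PSMB8 (ENSG00000204264.12, minus strand, chr6:32840717-32844679). The labels do not say whether the library kit kept the strand, so reads from exons that overlap between these genes cannot be told apart. TAP2 (ENSG00000204267.19, chr6:32821833-32838739) and TAPBP (ENSG00000231925.14, chr6:33299694-33314284) are on the minus strand. B2M (ENSG00000166710.23) is the exception, on the plus strand of chr15:44711358-44718851.

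The 200 bases before the start site are shown for the pair that passed the test in a comparison, HLA-B and TAP1, and for the genes whose levels followed HLA-B most closely among the 9, HLA-C and B2M. They are RefSeq promoter sequences of GRCh38.p14, written 5′ to 3′ on the strand of the gene, and 8 of the 9 genes had such a window. HLA-B is chr6:31357180-31357379, HLA-C chr6:31272093-31272292, TAP1 chr6:32853705-32853904 and B2M chr15:44711317-44711516. Capitals mark matches, on either strand, to the interferon-stimulated response element (GAAA, any 2 bases, GAAA), the gamma-activated site TTCNNNGAA, the CCAAT box or the kappa-B consensus.
HLA-B: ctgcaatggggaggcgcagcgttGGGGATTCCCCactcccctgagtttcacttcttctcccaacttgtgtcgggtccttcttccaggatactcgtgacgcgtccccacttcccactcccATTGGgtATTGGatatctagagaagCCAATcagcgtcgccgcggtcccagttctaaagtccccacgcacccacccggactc
HLA-C: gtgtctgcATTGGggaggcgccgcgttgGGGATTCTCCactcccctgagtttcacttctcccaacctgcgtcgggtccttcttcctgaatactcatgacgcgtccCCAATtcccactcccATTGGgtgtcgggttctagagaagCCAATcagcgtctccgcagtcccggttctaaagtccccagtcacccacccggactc
B2M: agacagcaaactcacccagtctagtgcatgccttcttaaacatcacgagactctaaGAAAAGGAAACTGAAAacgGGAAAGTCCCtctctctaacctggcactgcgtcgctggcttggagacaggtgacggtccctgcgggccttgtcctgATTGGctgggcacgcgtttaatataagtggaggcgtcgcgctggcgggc
TAP1: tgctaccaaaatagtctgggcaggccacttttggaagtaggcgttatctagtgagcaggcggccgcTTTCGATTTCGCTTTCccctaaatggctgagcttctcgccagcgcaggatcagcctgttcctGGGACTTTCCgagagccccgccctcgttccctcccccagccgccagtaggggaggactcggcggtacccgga
HLA-B and HLA-C were 87.7% identical over this stretch, with 179 identical positions, 17 mismatches and 8 gap bases. In the 250 bases before the start, HLA-B held 3 CCAAT boxes and 2 overlapping kappa-B matches, and HLA-C held 4 CCAAT boxes and 1 kappa-B match. Neither held an exact match to the response element. Only exact matches to each pattern were counted, so a gene without a match can still hold a variant of the element. B2M and TAP1 each held 2 overlapping response elements, 1 CCAAT box and 1 kappa-B match, the CCAAT box of TAP1 lying upstream of the bases shown. Among the others, TAPBP held 2 overlapping response elements and 1 kappa-B match, TAP2 held 1 response element, PSMB8 held 1 gamma-activated site and PSMB9 held 1 CCAAT box. The CCAAT boxes counted for TAP1 and PSMB9 are the same bases, read from opposite strands. Of 35116 promoter windows of that length, 3.02% held the response element, 6.57% the gamma-activated site, 32.0% a CCAAT box and 5.21% a kappa-B match. The start sites of TAP1 and PSMB9 are 488 bases apart and face away from each other.

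Library totals were 14.42 to 19.48 M estimated counts. Fibroblast markers were abundant throughout, with DCN at 130947 to 170138 and COL1A1 at 68876 to 116717 normalized counts, that is, counts divided by the library's size factor. By DESeq2's test, 1 of 8 such markers was called between vehicle and unstimulated libraries (LUM, log2 fold change 0.36), 2 between belinostat and vehicle (COL1A1 -0.29, PDGFRA -0.25) and 2 between GSK-J4 and vehicle (COL1A2 and COL3A1, each 0.22). The lymphocyte and epithelial markers CD3E and KRT20 were at 0 in every library, PTPRC was at 0 to 5.12, EPCAM at 0 to 5.73 and CDH5 at 0 to 0.888, while CD68 was at 148 to 474 and CD14 at 30.2 to 247. Some libraries stood apart in the genes described here. Expressed as the mean z-score of the 9 genes over the 16 libraries, vehicle 13 was at 1.52, vehicle 16 at 1.12, GSK-J4 22 at 1.02 and GSK-J4 21 at 0.51, and the other libraries were between -0.66 and 0.27. In vehicle 13 all 9 genes were among the 4 highest of the 16 libraries. IRF9 was the highest of its group in unstimulated 4, vehicle 13 and GSK-J4 22, so some results are also given without these libraries. In bulk RNA, fewer cells expressing a gene and less RNA per cell cannot be told apart.

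MHC class I presentation RNA was present in every group, most abundantly that of B2M and the heavy chains, and differed little between groups. With DESeq2's Wald test at an adjusted p under 0.05, 0 of the 9 genes passed between vehicle and unstimulated libraries, 0 between belinostat and vehicle, 0 between GSK-J4 and vehicle, and 2 between belinostat and GSK-J4, where HLA-B and TAP1 were lower after belinostat. Against the unstimulated group, 0 passed for belinostat and 0 for GSK-J4. Over the 6 comparisons, the 95% intervals of the members' ratios lay between 0.716 and 1.32.

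**Figure D1:**
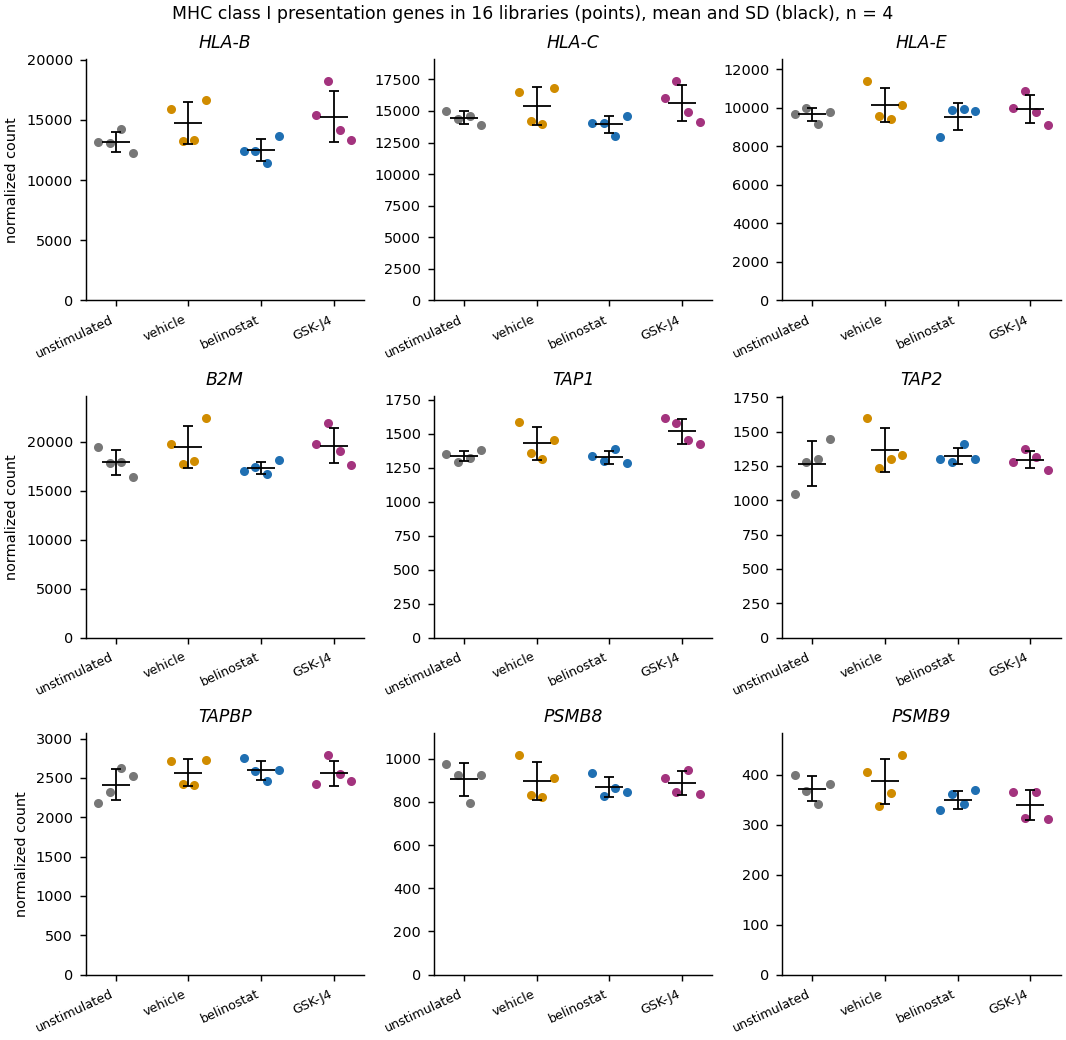
Normalized count (y axis, linear, from 0) of each gene in the 16 libraries, grouped on the x axis. Points are libraries in the order of their numbers and black marks are the mean and SD of 4. The groups overlap in nearly every panel, and the exception to see is TAP1, whose GSK-J4 points (1424 to 1616) lie above those of belinostat (1286 to 1386) and of the unstimulated group (1294 to 1378).

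HLA-B, a classical heavy chain, was at 13178, 13049, 14255 and 12241 normalized counts in unstimulated libraries 1 to 4, and at 15898, 13254, 13338 and 16652 in vehicle libraries 13 to 16. It was at 12418, 12428, 11432 and 13673 after belinostat (17 to 20), and at 15394, 18238, 14171 and 13345 after GSK-J4 (21 to 24). Vehicle 13 and 16 and GSK-J4 22 and 21 were the high libraries, and every pair of groups overlapped. The means were 13181 ± 828 (SD, n = 4), 14785 ± 1748, 12488 ± 918 and 15287 ± 2140 in that order. Reads that fit several HLA genes or alleles are divided by the quantifier, and the alleles of this line can differ from the reference, so the heavy-chain values are less certain than the others.

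HLA-C, the other classical heavy chain of the set, was at 15033, 14367, 14625 and 13851 normalized counts in the unstimulated group and at 16482, 14196, 13978 and 16818 in the vehicle group. After belinostat it was at 14025, 14040, 13051 and 14630, and after GSK-J4 at 16025, 17366, 14948 and 14110. The same 4 libraries were the high ones as for HLA-B. HLA-E, the heavy chain read by inhibitory receptors of natural killer cells, ranged from 9177 to 9978 in the unstimulated group, 9427 to 11379 in the vehicle group, 8475 to 9947 after belinostat and 9080 to 10873 after GSK-J4, all groups overlapping.

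B2M, the shared light chain, was at 19465, 17826, 17966 and 16396 normalized counts in the unstimulated libraries and at 19751, 17730, 18064 and 22426 in the vehicle libraries. It was at 17017, 17425, 16736 and 18194 after belinostat and at 19820, 21902, 19073 and 17651 after GSK-J4. Vehicle 16 and GSK-J4 22 were the highest of the 16. The group means were 17913 ± 1255, 19493 ± 2146, 17343 ± 634 and 19612 ± 1773 (SD, n = 4).

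TAP1, one subunit of the peptide transporter, was at 1352, 1294, 1320 and 1378 normalized counts in the unstimulated group and at 1590, 1362, 1317 and 1451 in the vehicle group. After belinostat it was at 1339, 1297, 1386 and 1286, and after GSK-J4 at 1616, 1579, 1455 and 1424. The GSK-J4 libraries did not overlap with the belinostat or unstimulated ones, and the vehicle libraries spanned both. TAP2, the partner subunit, ranged from 1047 to 1444 in the unstimulated group, 1233 to 1599 in the vehicle group, 1281 to 1413 after belinostat and 1220 to 1376 after GSK-J4. TAPBP (tapasin) ranged from 2182 to 2629, 2413 to 2724, 2458 to 2750 and 2429 to 2790 in the same order. TAP2 and TAPBP overlapped between all groups.

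PSMB8, the immunoproteasome subunit with chymotrypsin-like activity, had means of 905 ± 76.8, 896 ± 89.1, 868 ± 46.7 and 887 ± 54.3 normalized counts in the unstimulated, vehicle, belinostat and GSK-J4 groups (SD, n = 4). PSMB9 had the lowest counts of the 9, with means of 372 ± 24.4, 387 ± 45.0, 350 ± 17.8 and 339 ± 30.4 in that order. Its 4 GSK-J4 libraries were at 365, 313, 365 and 311, and its vehicle libraries at 406, 337, 364 and 439, so that the groups overlapped. PSMB9 was not below 311 normalized counts in any of the 16 libraries.

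The comparison of vehicle with unstimulated libraries asks what remained of the cytokine history, and 8 of the 9 genes had positive but uncalled log2 fold changes. The vehicle libraries were split. The members' mean z-score was 1.52 and 1.12 in vehicle 13 and 16, but -0.56 and -0.48 in vehicle 14 and 15. It was -0.40 to -0.13 in the unstimulated libraries. The median over the 9 genes was 0.09 on the log2 scale, against -0.01 over all genes tested. HLA-B had a log2 fold change of 0.17 (SE 0.10, adjusted p = 0.691 by DESeq2) and B2M of 0.12 (SE 0.079, adjusted p = 0.773). PSMB8 had -0.01 (SE 0.081). The 95% intervals of the 9 ratios all lay within 0.888 to 1.28. Over all genes tested, 1.74% were called and 6.93% had groups that did not overlap, and of the 9 genes 0 were called, 0 did not overlap, 0 had an unadjusted p under 0.05, and 0 were called by edgeR's quasi-likelihood test.

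Between belinostat and vehicle, 8 of the 9 genes had negative log2 fold changes and none passed the test. The members' mean z-score was -0.51 to -0.18 in the belinostat libraries. In vehicle 13 and 16 it was 1.52 and 1.12, but in vehicle 14 and 15 it was -0.56 and -0.48. HLA-B was at -0.24 (SE 0.10, unadjusted p = 0.0119, adjusted p = 0.130 by DESeq2), a ratio of 0.845 with a 95% interval of 0.741 to 0.963. B2M was at -0.17 (SE 0.079, unadjusted p = 0.0331, adjusted p = 0.251). These 2 were the members with an unadjusted p under 0.05. HLA-C and PSMB9 were each at -0.14, TAP1 at -0.11 (SE 0.063), HLA-E at -0.09, PSMB8 at -0.05, TAP2 at -0.04 and TAPBP at 0.02. The median was -0.11, against 0.003 over all genes tested. Of all genes tested, 6.26% were called and 11.4% did not overlap between these groups, where 0 of the 9 were called by DESeq2, 0 by edgeR, and 0 did not overlap.

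Between GSK-J4 and vehicle the 9 genes split, 4 positive and 5 negative, with a median of -0.01 on the log2 scale. PSMB9 had the largest difference, -0.19 (SE 0.10, unadjusted p = 0.0447, adjusted p = 0.477 by DESeq2), a ratio of 0.876 with an interval of 0.769 to 0.997, and was the 1 member with an unadjusted p under 0.05. TAP1 was at 0.09 (SE 0.063, adjusted p = 0.733) and HLA-B at 0.05 (SE 0.10, adjusted p = 0.950). TAP2 was at -0.07, HLA-E at -0.03, HLA-C at 0.02, PSMB8 at -0.02, and B2M and TAPBP at 0.01 and -0.01. All 9 intervals lay within 0.769 to 1.18. The background was 1.92% called and 10.0% not overlapping, and of the 9 genes 0 were called by DESeq2, 0 by edgeR, and 0 did not overlap.

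**Figure D2:**
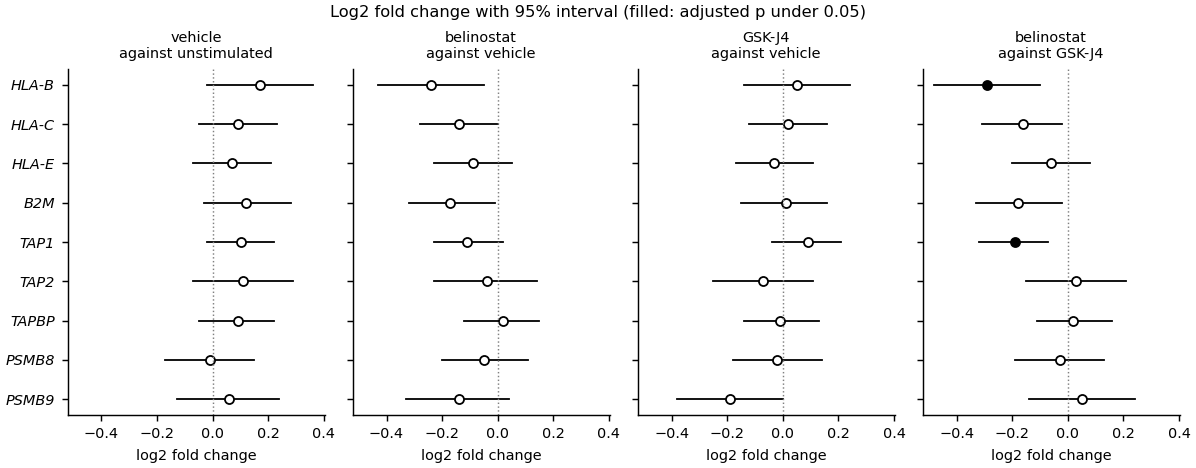
Log2 fold change (x axis, first group over second) of each gene (y axis) in 4 comparisons, with 95% intervals as lines. Filled circles passed DESeq2's adjusted p under 0.05; they are HLA-B (-0.29) and TAP1 (-0.19) between belinostat and GSK-J4.

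Belinostat and GSK-J4 gave the only called members, both lower after belinostat. HLA-B had a log2 fold change of -0.29 (SE 0.10, adjusted p = 0.0260 by DESeq2), a ratio of 0.817 with an interval of 0.716 to 0.932. TAP1 had -0.19 (SE 0.063, adjusted p = 0.0221), a ratio of 0.874 with an interval of 0.802 to 0.952. HLA-C (-0.16, adjusted p = 0.132) and B2M (-0.18, adjusted p = 0.138) did not pass, and HLA-E was at -0.06, PSMB8 at -0.03, TAP2 at 0.03, TAPBP at 0.02 and PSMB9 at 0.05. The share called, 2 of 9, is to be read against 12.2% of all genes tested in this comparison, and 1 of 9 did not overlap against 17.0%. Of the 8 fibroblast markers, 3 were lower after belinostat in the same comparison (COL1A1 -0.43, COL1A2 -0.26, COL3A1 -0.38), and their part in the HLA-B and TAP1 values was not tested. Over 14 alternative settings HLA-B stayed at -0.35 to -0.20 and TAP1 at -0.22 to -0.16, and the calls held in 8 and 9 of them. Without GSK-J4 22 the adjusted p was 0.187 for HLA-B and 0.106 for TAP1, without GSK-J4 21 it was 0.0681 and 0.114, and without belinostat 18 it was 0.0650 and 0.0761. HLA-B also lost its call without belinostat 19 (adjusted p = 0.107) and with edgeR (adjusted p = 0.0636), TAP1 without belinostat 20 (adjusted p = 0.0875), and HLA-C was called without GSK-J4 24 (adjusted p = 0.0438).

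Against the unstimulated group, the belinostat libraries had a median log2 fold change of -0.05 over the 9 genes, and all 95% intervals of the ratios lay within 0.826 to 1.19. There 0 of the 9 were called by DESeq2, 0 by edgeR and 0 at an unadjusted p under 0.05, with 10.3% of all genes tested called, and 0 did not overlap against 12.3%. For GSK-J4 the median was 0.08 and the intervals lay within 0.799 to 1.32. TAP1 had a log2 fold change of 0.18 (SE 0.063, unadjusted p = 0.00324, adjusted p = 0.0559 by DESeq2) and HLA-B of 0.21 (SE 0.10, unadjusted p = 0.0272, adjusted p = 0.236), which made 2 members with an unadjusted p under 0.05. By DESeq2 and by edgeR 0 of the 9 were called, against 5.55% of all genes tested, and 1, TAP1, did not overlap, against 11.9%. TAP1 was called when the fit held only the groups compared (adjusted p = 0.0475) and without GSK-J4 24 (adjusted p = 0.0321). These comparisons share libraries with the ones above and are not independent of them.

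The heavy chains HLA-B and HLA-C and the light chain B2M varied together from library to library, and the other members less closely. Over the 16 libraries, 34 of the 36 pairs of members had a positive Pearson r on the log2(normalized count + 1) scale, with a median of 0.38 and a range of -0.09 to 0.96. Over all pairs of the 11741 genes with a mean of at least 50 normalized counts, the median r was 0. HLA-B and HLA-C had r = 0.96, and 0.95 once the group means were removed, and with B2M, on another chromosome, HLA-B had 0.92 and HLA-C 0.94. The antigen-processing genes followed less closely. PSMB8 and PSMB9 had r = 0.57, TAP1 and TAP2 0.40, B2M and TAP2 0.01, and TAPBP had -0.08 with PSMB8 and -0.09 with PSMB9. These points share their libraries and scaling, and the values are descriptions. Spread within groups differed as well, since the median coefficient of variation over the 9 genes was 6.56% in the unstimulated group, 9.94% in the vehicle group, 4.69% after belinostat and 7.45% after GSK-J4.

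The genes most like the members over the 16 libraries, among 11732 ranked by r with the mean z-score, were LY6E (0.81), IFITM1 (0.80), HLA-H (0.79), HLA-F (0.79) and ISLR (0.77). LY6E and IFITM1 are known interferon-induced genes, HLA-F is a further class I heavy chain, and HLA-H is a class I pseudogene that can share reads with expressed class I genes. LY6E was at 3046 normalized counts in vehicle 13, 1911 in vehicle 16 and 3777 in GSK-J4 22, and at 1225 to 2029 in the other 13 libraries. IFITM1 was at 4540, 2722 and 4761 in those libraries, and at 1928 to 3091 in the others. Both were highest in GSK-J4 22 and vehicle 13, where the members were high, but in unstimulated 4, where the members' mean z-score was -0.13, they (2029 and 3091) were above vehicle 16. The regulators were high in a set of libraries that only partly matched. IRF9 was at 1169 in unstimulated 4, 1224 in vehicle 13 and 1105 in GSK-J4 22, and between 641 and 804 in the other 13 libraries. Vehicle 16, where B2M and HLA-B were high, had IRF9 at 737 but the highest NLRC5 of all libraries, 722. NLRC5 was next highest in belinostat 18 (689) and GSK-J4 24 (648), where the members' mean z-scores were -0.44 and -0.66. NLRC5 had r = 0.31 with HLA-B and 0.45 with B2M, and 0.04 and 0.28 once the group means were removed. TAP2 had r = 0.75 with IRF9, whereas B2M had 0.18. Without unstimulated 4, vehicle 13 and GSK-J4 22, a setting chosen after seeing the data, neither call between belinostat and GSK-J4 held with DESeq2, HLA-B being at -0.20 (adjusted p = 0.198) and TAP1 at -0.18 (adjusted p = 0.0656).

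**Figure D3:**
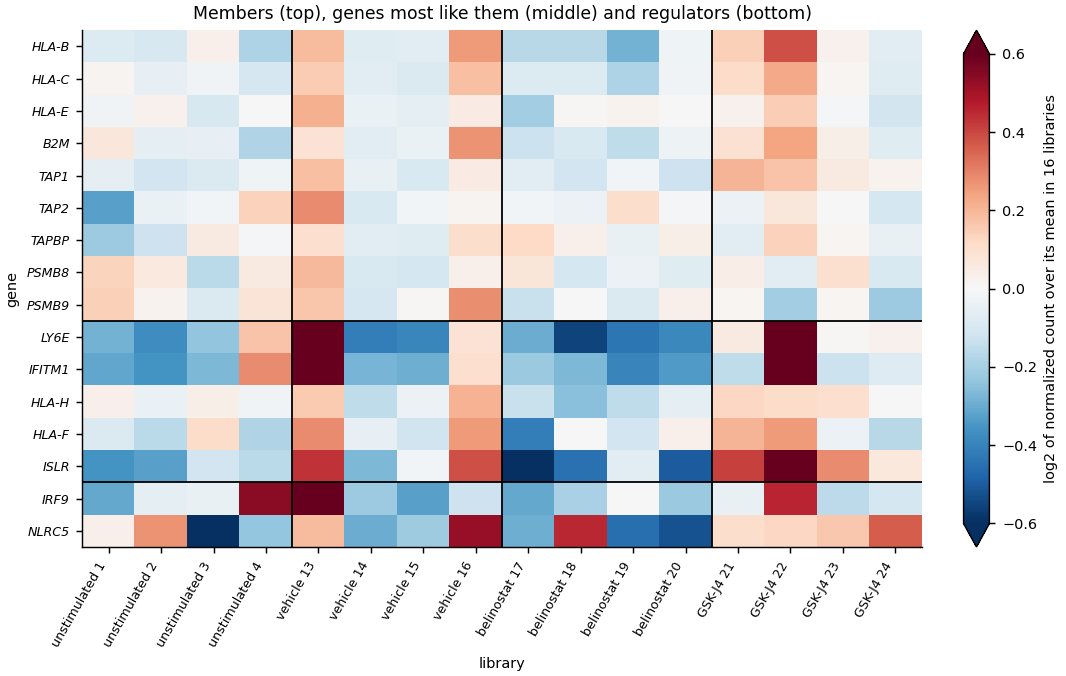
Log2 of each normalized count over the gene's mean in 16 libraries (colour, saturating at the ends of the bar), for the 9 members, the 5 genes most like them and 2 regulators (rows) in each library (columns, vertical lines between groups). Vehicle 13 and 16 and GSK-J4 21 and 22 are red across HLA-B, HLA-C and B2M, while IRF9 is reddest in unstimulated 4, vehicle 13 and GSK-J4 22.

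Levels were compared between genes per kb of transcript, using the length of the MANE transcript in GENCODE. Averaged over the 16 libraries, B2M had the highest level, 19714 normalized counts per kb, followed by HLA-C at 9628, HLA-B at 9072, HLA-E at 3849, PSMB8 at 791, TAPBP at 735, TAP1 at 523, PSMB9 at 356 and TAP2 at 233. The ranges of HLA-C (8463 to 11262) and HLA-B (7443 to 11874) overlapped, as did those of PSMB8 (708 to 905) and TAPBP (632 to 809), while the ranges of the other neighbours in this order did not. Within libraries, HLA-C was above HLA-B per kb in 15 of 16 and PSMB8 above TAPBP in 12 of 16. Of the other class I chains, HLA-F was at 364 and HLA-G, known mainly from the placenta, at 148. Together the 9 genes made up 0.329% to 0.426% of a library's counts.

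**Figure D4:**
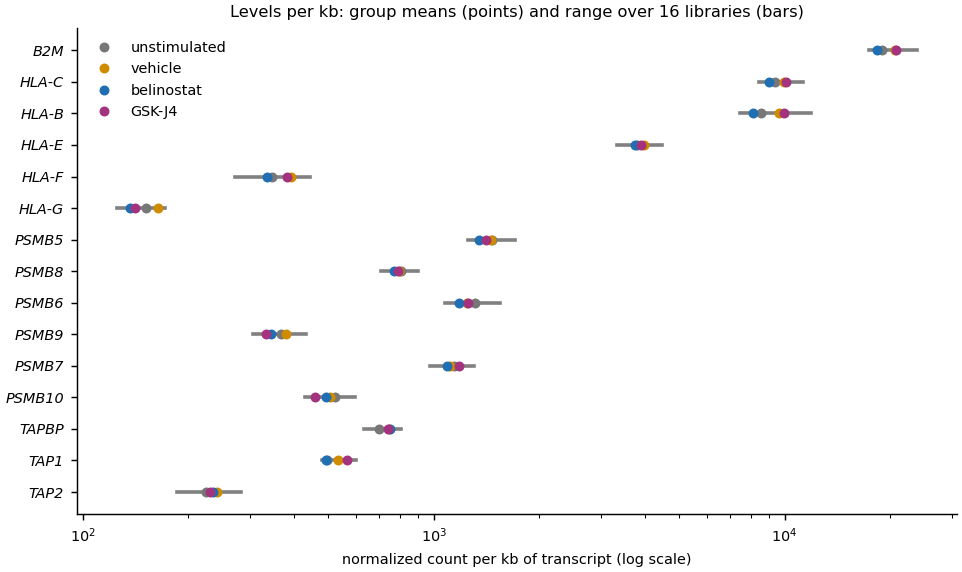
Normalized count per kb of transcript (x axis, log scale) for the members and their counterparts (y axis). Points are group means, bars the range over 16 libraries. B2M (19714 per kb on average) lies above every heavy chain, and PSMB5, PSMB6 and PSMB7 lie above PSMB8, PSMB9 and PSMB10.

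Ratios within a library described the composition of the machinery. The heavy chains HLA-B, HLA-C and HLA-E summed per kb to 1.07 to 1.20 times B2M in the unstimulated libraries, 1.08 to 1.22 in the vehicle libraries, 1.12 to 1.15 after belinostat and 1.12 to 1.18 after GSK-J4. PSMB8 over its constitutive counterpart PSMB5 was 0.553 ± 0.041, 0.548 ± 0.053, 0.575 ± 0.014 and 0.559 ± 0.024 in that order (SD, n = 4). PSMB9 over PSMB6 was 0.282 ± 0.025, 0.306 ± 0.027, 0.292 ± 0.029 and 0.265 ± 0.018, so the constitutive subunits were the more abundant RNAs in every group. TAP1 over TAP2 was 2.06 to 2.17 after belinostat and 2.33 to 2.65 after GSK-J4, and 2.01 to 2.71 and 2.09 to 2.32 in the unstimulated and vehicle groups. The belinostat and GSK-J4 ratios did not overlap, and no test was run on them. TAP1 itself did not overlap between these groups, where 17.0% of all genes tested did not overlap.

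In the list of loading, folding and trimming factors, 1 of 7 was called between vehicle and unstimulated libraries (1.74% of all genes tested) and 2 of 7 between belinostat and GSK-J4 (12.2%). ERAP2, an aminopeptidase that trims peptides in the endoplasmic reticulum, was the gene called in the former. ERAP2 was at 1108, 1066, 1132 and 1093 normalized counts in the unstimulated libraries and at 1346, 1387, 1312 and 1424 in the vehicle libraries, with no overlap, and rose by a log2 fold change of 0.31 (SE 0.055, adjusted p = 3.7e-06 by DESeq2). It was at 1313 to 1537 after belinostat and 1183 to 1246 after GSK-J4, which differed (log2 fold change 0.26, adjusted p = 4.37e-05). Against vehicle ERAP2 passed for neither compound, at 0.09 for belinostat (adjusted p = 0.409) and -0.17 for GSK-J4 (adjusted p = 0.0815, and 0.0294 when the fit held only those groups). LNPEP, the related aminopeptidase, was also called between belinostat and GSK-J4 (0.25, adjusted p = 0.00593) and was named after its values were seen.

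SOCS1, a feedback inhibitor of cytokine signalling, moved in opposite directions after the compounds. It was at 117 to 152 normalized counts in the unstimulated group, 120 to 159 in the vehicle group, 56.3, 73.3, 77.7 and 90.3 after belinostat, and 197, 316, 286 and 192 after GSK-J4. No belinostat or GSK-J4 library overlapped with vehicle. Relative to vehicle it fell by 0.91 on the log2 scale after belinostat (SE 0.19, adjusted p = 0.000115 by DESeq2) and rose by 0.83 after GSK-J4 (SE 0.18, adjusted p = 0.000645). The direct difference between the compounds was -1.74 (SE 0.19, adjusted p = 5.86e-18). Without unstimulated 4, vehicle 13 and GSK-J4 22, the GSK-J4 difference was 0.66 with an adjusted p of 0.0941. SOCS1 was the 1 of 10 interferon receptor and signalling genes called in each comparison of a compound with vehicle, where 6.26% (belinostat) and 1.92% (GSK-J4) of all genes tested were called.

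Among the other class I and class I-like chains, CD1D, which presents lipids to natural killer T cells, was at 672, 440, 395 and 560 normalized counts after belinostat and at 275, 276, 344 and 319 in the vehicle group. The groups did not overlap and CD1D rose by 0.77 (SE 0.14, adjusted p = 3.83e-06 by DESeq2). After GSK-J4 it was at 212 to 235, below vehicle in all 4 libraries, with a log2 fold change of -0.43 that did not pass (adjusted p = 0.109, and 0.00445 when the fit held only those groups). Between the compounds the difference was 1.20 (SE 0.14, adjusted p = 8.52e-15). MICA, a stress ligand named after its values were seen, was called as well between the compounds (0.24, adjusted p = 0.0493 by DESeq2). Of the 8 chains in this list, 1 was called between belinostat and vehicle, against 6.26% of all genes tested. Between the compounds 3 were called, 2 higher and 1 lower after belinostat, against 12.2%. The lowest log2 fold change of the list there was -0.26.

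**Figure D5:**
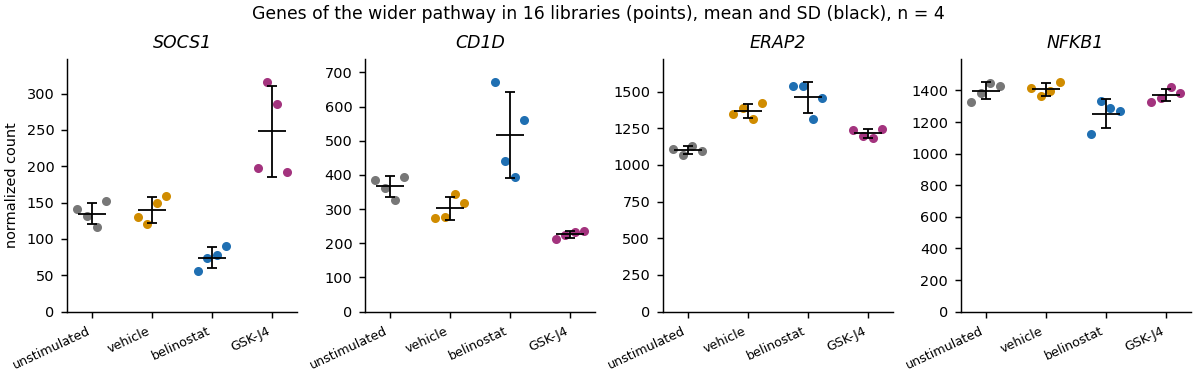
Normalized count (y axis, linear, from 0) of SOCS1, CD1D, ERAP2 and NFKB1 in the 16 libraries, by group (x axis). Points are libraries and black marks the mean and SD of 4. SOCS1 and CD1D lie apart between belinostat and GSK-J4, ERAP2 between unstimulated (1066 to 1132) and vehicle (1312 to 1424). The belinostat libraries of NFKB1 (1121 to 1333) lie just below those of vehicle (1362 to 1453).

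Of the 7 proteasome counterparts and activator subunits, 0 were called by DESeq2 in any of the 6 comparisons, with 0 or 1 of them at an unadjusted p under 0.05 in each, while 1.74% to 12.2% of all genes tested were called. Of the 13 class I transcription factors and coactivators, NFKB1, a subunit of NF-kappa-B, was the 1 called against vehicle, after belinostat (6.26% of all genes tested). It was at 1121, 1333, 1288 and 1270 normalized counts there and at 1362 to 1453 in the vehicle group, with no overlap, and fell by 0.17 on the log2 scale (SE 0.055, adjusted p = 0.0391 by DESeq2). The call held in 4 of 14 alternative settings, with the log2 fold change between -0.20 and -0.12 and the adjusted p up to 0.210. The settings that lost it included edgeR (0.0767), only the groups compared (0.151), and leaving out vehicle 13, 14, 15 or 16 or belinostat 17 or 20 (0.0543 to 0.159). Not every setting that lost it is listed here. NLRC5 and IRF1 passed in none of the 6 comparisons by DESeq2.

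Class II presentation was near the floor in these cells. CD74 was at 0 to 3.11 normalized counts, HLA-DRA at 0 to 1.22 and CIITA, the class II coactivator, at 6.14 to 21.2, and between 2 and 3 of the 10 class II genes had enough counts to be tested. HLA-DPB1 was at 110 to 170. HLA-DMA, named after its values were seen, was at 48.8 to 80.2 after belinostat and 32.0 to 44.4 in the unstimulated group, and passed in that comparison (0.79, adjusted p = 0.00752 by DESeq2). CD14, a monocyte marker, was called in the same comparison (1.45, adjusted p = 0.00109), with means of 196 and 71.8, while PTPRC was at 0 to 5.12 throughout. The part of CD14-expressing cells in the HLA-DMA value was not tested. In the vehicle group HLA-DMA was at 39.3 to 51.2, which overlapped with the belinostat libraries. Between belinostat and vehicle, 0 of the 3 class II genes tested were called by DESeq2. In the chromosome 6 interval from 28.5 to 33.5 Mb, genes other than the 9 members were called by DESeq2 at 6.72% between belinostat and vehicle (8 of 119), 12.1% between belinostat and GSK-J4 (15 of 124) and 9.24% between belinostat and unstimulated libraries (11 of 119). They were called at 0.725% between vehicle and unstimulated libraries (1 of 138), at 2.13% between GSK-J4 and unstimulated libraries (3 of 141), and in 0 of 108 between GSK-J4 and vehicle, where 7 had an unadjusted p under 0.05. The corresponding shares of all genes tested were 6.26%, 12.2%, 10.3%, 1.74%, 5.55% and 1.92%.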

How the data were processed

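RNA from 16 Ccd18-Co cultures was sequenced in bulk. Per the labels, reads were checked with FastQC 0.11.9 and MultiQC 1.14 and quantified with kallisto 0.48.0, with hg38 as the build. The transcriptome release and the step from transcripts to gene symbols are not given in the sources used here. The authors deposited estimated counts per gene symbol, unscaled, of which 28% had decimals, and these were rounded to whole numbers here. Groups came from the titles. The unstimulated columns carry the word none where the titles say DMSO and were matched by number. A total of 26907 symbols had a count.

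Groups were compared with DESeq2 1.42.0 under R 4.3.3 (Wald test), in 1 fit of all 16 libraries with group as the factor, default independent filtering and Benjamini-Hochberg adjustment over all genes tested, at 0.05. Alternatives were edgeR 4.0.16 (quasi-likelihood), TMM size factors, a filter of at least 10 counts in 4 libraries, no independent filtering, fits of the compared groups alone, and leaving out libraries. The code was tested on simulated data. Named from the wider lists were genes called against vehicle and direct counterparts of members. Some genes of these lists are not reported here. The genes most like the members needed a mean of at least 50 normalized counts. Members and lists were chosen with earlier results of these data known, so their values support no choice made here. Extraction used either of 2 kits, and the labels do not say which for each library. Coordinates are from GENCODE on GRCh38 and may differ from the annotation the authors used.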

Additional observations from a re-analysis of the deposited data

Results flagged for a closer look

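Of 52 groups of 4 libraries examined for a value far from the others (9 members and 4 further genes in 4 groups), 2 held one, and chance gives about 1 in 20. HLA-E was at 8475 normalized counts in belinostat 17, while the other belinostat libraries were at 9806 to 9947. The same library had the lowest COL1A1 (68876) and DCN (130947) of all 16, and their part in the HLA-E value was not tested. TAP2 was at 1413 in belinostat 19, while the other belinostat libraries were at 1281 to 1302. Neither gene was called in any comparison.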

How the results depend on the processing

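The number of members called was the same under every alternative in 4 of the 6 comparisons, where it was 0. Between belinostat and GSK-J4 it was 2 in the main fit, 1 with edgeR, 0 without the 3 libraries high in IRF9, and 0 to 3 when 1 library was left out. Between GSK-J4 and unstimulated libraries it was 0, but 1 when the fit held only the groups compared, and 0 to 1 when 1 library was left out. The single genes kept direction and call in 696 of their alternatives, lost the call in 32, gained it in 5 and changed sign in 37. Every change of sign was of an uncalled value near 0. Without 1 library, values for vehicle against unstimulated ran from -0.08 to 0.03 for PSMB8 and from -0.01 to 0.12 for PSMB9. For belinostat against vehicle they ran from -0.09 to 0.04 (TAP2), -0.01 to 0.05 (TAPBP) and -0.08 to 0.02 (PSMB8). For GSK-J4 against vehicle they ran from -0.05 to 0.11 (HLA-B), -0.03 to 0.07 (HLA-C), -0.08 to 0.03 (HLA-E), -0.05 to 0.08 (B2M), -0.12 to 0.01 (TAP2), -0.05 to 0.02 (TAPBP) and -0.05 to 0.05 (PSMB8). For belinostat against GSK-J4 they ran from -0.0047 to 0.06 (TAP2), -0.01 to 0.07 (TAPBP) and -0.07 to 0.01 (PSMB8). Without the 3 libraries high in IRF9, signs changed for belinostat against vehicle in TAP2 (0.04) and PSMB8 (0.02), and for GSK-J4 against vehicle in HLA-B (-0.01), B2M (-0.04) and PSMB8 (0.07). The causes were not tested. The replicate numbers of the groups do not overlap. No paired analysis was possible because the groups share no replicate number.

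With 4 libraries a group, the 95% intervals of the members' ratios give the differences that these data allow, from 0.716 to 1.32 over the 6 comparisons. HLA counts also carry the uncertainty of reads that fit several genes or alleles.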
